A study of Homo sapiens with 4 samples.

Results

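The serpin genes were followed in HCE cells, a human cell line that the labels call undifferentiated, after siRNA knockdown of the zinc finger transcription factor KLF7. Members were all genes with 1 platform symbol made of SERPIN, a clade letter from A to I and a number, which gave 31 of 18417 genes, each measured by 1 array feature. They comprised 11 genes of clade B, 11 of clade A, 1 of clade E (SERPINE2) and 8 of clades C, D, F, G, H and I. SERPINB2 and SERPINB6 were not analysed here, and the clade E comparison rests on 1 gene. Total RNA was hybridised to 4 whole-transcript arrays: 2 of cells given a non-targeting scramble control siRNA pool and 2 of cells given an siRNA pool against KLF7 (siKLF7), both at 20 nM, collected 48 hours after transfection of 100000 cells per well in the same growth medium. All arrays came from this 1 cell line. Nothing in the labels tells whether replicates came from different cultures, and the p-values therefore reflect array-to-array spread that could be purely technical.

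Serpins are protease inhibitors that present an exposed loop as bait. A target protease cuts the loop and is trapped in a covalent complex as the serpin changes shape. Clade B members lack a classical signal peptide and act largely inside cells. Several of them, encoded in a cluster on chromosome 18, are typical of stratified squamous epithelia, the tissue class of the corneal surface. Most other clades are secreted and regulate coagulation, fibrinolysis, complement and matrix turnover, and a few members inhibit no protease.

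Levels are array signals on a linear scale, and differences are on the log2(signal + 16) scale, siKLF7 minus control. Scramble control replicate 1 stood apart from the other 3 arrays. Across the 31 serpin genes it correlated with them at r = 0.830 to 0.859, against 0.990 to 0.997 among the other 3 (0.934 to 0.938 and 0.990 to 0.994 across all genes, which are not independent replicates). Many differences are therefore given against each control array, and the rest against 1 control or with 4 arrays only. With all 4 arrays, limma called 0 of 18417 genes at an adjusted p under 0.05 (0.0%), and 1070 genes had an unadjusted p under 0.05. Without scramble control replicate 1 it called 289 genes (1.57%), and without scramble control replicate 2 it called 4928 (26.8%). In both of these 3-array fits the lone control was assumed to vary like the siKLF7 pair. KLF7 itself had signals of 4649 and 2911 in control and 1492 and 1122 in siKLF7 arrays. It was lower in siKLF7 cells than in either control, by 1.83 and 1.16 on the log2 scale, and its limma adjusted p was 0.639 with 4 arrays and 2.0e-09 without scramble control replicate 1.

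Which serpins differed between siKLF7 and control cells depended on the control array. Against scramble control replicate 2, SERPINB3 and SERPINB4 fell in siKLF7 cells, to 56.2% and 55.0% of the control level. They were the only 2 of 31 serpin genes called without scramble control replicate 1, where 1.57% of all genes were called. Compared with scramble control replicate 1 the same genes were 4.08-fold and 5.02-fold higher in siKLF7 cells. These folds and percentages are on the log2(signal + 16) scale, which understates changes from low signals such as the 63.5 of SERPINB4 in that array, and whether that signal exceeded background was not tested. With all 4 arrays 0 of 31 serpin genes passed limma's threshold (0.0% of all genes), and 4 had an unadjusted p under 0.05, namely SERPINA10, SERPINB5, SERPINB10 and SERPINI1 (5.81% of all genes). An exact permutation test of 2 arrays against 2 cannot give a p below 0.333.

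**Figure D1:**
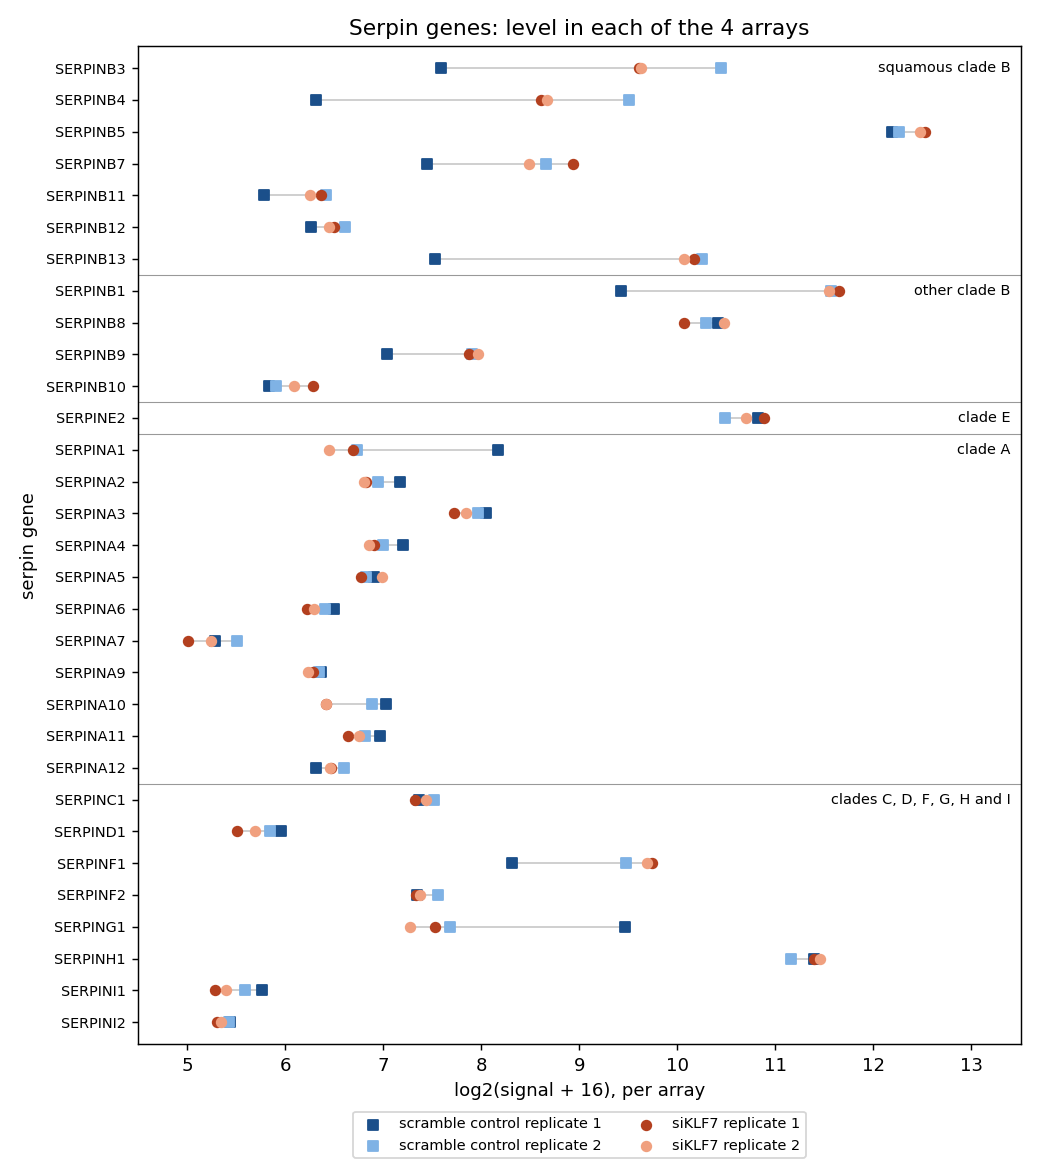
Level of each of the 31 serpin genes, as log2(signal + 16), in the 2 scramble control arrays (squares) and the 2 siKLF7 arrays (circles), grouped by clade. Positions of different genes on the axis are not comparable, since each has its own probes. In SERPINB3 and SERPINB4 both siKLF7 arrays lie between the controls, and in SERPINB1 and SERPINB13 scramble control replicate 1 lies far below the other 3 arrays.

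SERPINB3 and SERPINB4 are neighbouring, closely related genes first known as squamous cell carcinoma antigens. SERPINB3 inhibits lysosomal cysteine proteases such as cathepsins L, S and K, and SERPINB4 inhibits chymotrypsin-like serine proteases such as cathepsin G and mast cell chymase. Their RefSeq promoter windows, of the 250 bases before the transcription start on the minus strand of GRCh38.p14, are shown because both genes moved together. SERPINB3 lies at chr18:63661894-63662143 and SERPINB4 at chr18:63644257-63644506, and capitals mark the bases that differ between them.
SERPINB3: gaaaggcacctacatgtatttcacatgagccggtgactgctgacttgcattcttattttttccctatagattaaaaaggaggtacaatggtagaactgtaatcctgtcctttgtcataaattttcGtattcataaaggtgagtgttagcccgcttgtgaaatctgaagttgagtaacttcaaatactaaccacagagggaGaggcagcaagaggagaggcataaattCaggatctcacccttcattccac
SERPINB4: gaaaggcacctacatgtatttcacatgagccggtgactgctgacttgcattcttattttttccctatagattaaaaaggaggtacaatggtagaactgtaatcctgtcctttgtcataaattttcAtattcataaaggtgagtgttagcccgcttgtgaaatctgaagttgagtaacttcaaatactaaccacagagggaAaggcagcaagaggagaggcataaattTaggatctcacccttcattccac
These windows were identical at 247 of 250 bases (98.8%). Counted from 1 at the 5′ end, with the SERPINB3 base first, the differences were G126A, G201A and C228T. Closely related genes can share array probes, and the 2 signals may not be fully separate. Probe and transcript sequences were not compared.

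The SERPINB3 signal was 177 in scramble control replicate 1, 1380.5 in scramble control replicate 2, and 763 and 775 in the siKLF7 arrays. For SERPINB4 the corresponding signals were 63.5, 709.9, 375 and 391. In both genes the siKLF7 arrays almost coincided and lay between the 2 controls, which stood far apart. In the fit without scramble control replicate 1, SERPINB3 fell by 0.83 (SE 0.15, limma adjusted p = 0.000115) and SERPINB4 by 0.86 (SE 0.16, adjusted p = 0.000262). Over 9 processing alternatives the adjusted p stayed between 2.6e-07 and 0.0036 for SERPINB3 and between 2.6e-06 and 0.0025 for SERPINB4. The SD of the siKLF7 pair was 0.016 for SERPINB3 and 0.041 for SERPINB4 (log2, n = 2). The SD of the 2 controls was 2.02 and 2.26 (log2, n = 2), larger than the differences from scramble control replicate 2. In the fit without scramble control replicate 2, SERPINB3 rose by 2.03 (SE 0.16, adjusted p = 7.2e-19) and SERPINB4 by 2.33 (SE 0.16, adjusted p = 2.6e-22). With 4 arrays the differences were 0.60 (SE 0.95) and 0.73 (SE 1.06), and neither passed.

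**Figure D2:**
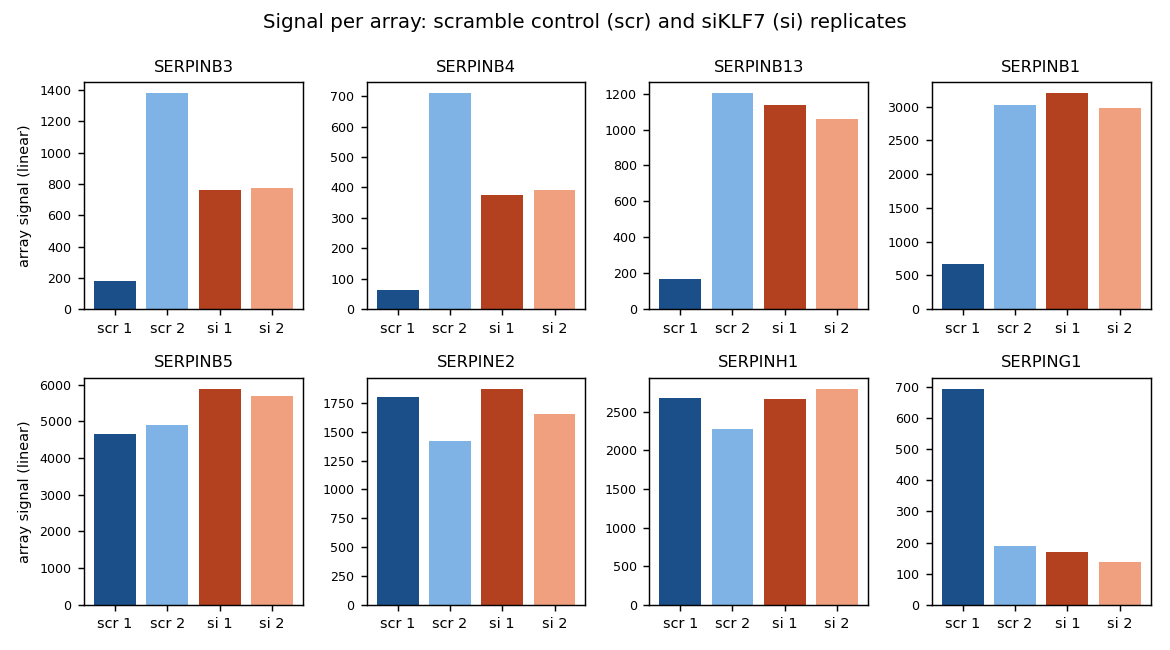
Linear array signal of 8 serpin genes in scramble control replicates 1 and 2 (scr) and siKLF7 replicates 1 and 2 (si), 1 bar per array, each panel with its own scale from 0. SERPINB3 runs at 177, 1380.5, 763 and 775, while SERPINB13 and SERPINB1 are low in scramble control replicate 1 only and SERPING1 is high there only.

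SERPINB13, or headpin, is an inhibitor of cathepsin L first described in keratinocytes. Its signal was 169 in scramble control replicate 1, 1203 in scramble control replicate 2, and 1137 and 1060.1 in the siKLF7 arrays. Scramble control replicate 1 was 6.22-fold below the mean of the other arrays, while the siKLF7 arrays stood only slightly below scramble control replicate 2. That difference was -0.13 (SE 0.14, limma adjusted p = 0.76), against 2.59 (SE 0.16, adjusted p = 2.6e-25) without scramble control replicate 2. SERPINB7, whose loss causes a palmoplantar keratoderma, was likewise lowest in scramble control replicate 1, with signals of 158 and 389 in the controls and 472 and 342 in siKLF7 cells. Its siKLF7 arrays lay on either side of scramble control replicate 2, a difference of 0.05 (SE 0.17), and it rose by 1.27 (SE 0.17, adjusted p = 1.5e-09) against scramble control replicate 1.

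SERPINB5, known as maspin, inhibits no protease and is abundant in basal epithelial cells. It had signals of 4663 and 4891 in control and 5885 and 5682 in siKLF7 arrays. Both siKLF7 arrays were above both controls, and the 4 arrays lay close together. The difference was 0.24 (SE 0.08, limma adjusted p = 0.15) against scramble control replicate 2 and 0.31 (SE 0.08, adjusted p = 0.0016) against scramble control replicate 1, where SERPINB5 rose. With 4 arrays the difference was 0.28 (SE 0.10) and did not pass. Across the processing alternatives of the fit without scramble control replicate 1, the adjusted p of SERPINB5 ran from 0.063 to 0.58.

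The last 2 squamous members were dim. SERPINB11 had signals of 39.0 and 69.2 in control and 66.6 and 60.0 in siKLF7 arrays. SERPINB12, an inhibitor of trypsin-like proteases, had signals of 60.8 and 81.8 in control and 74.2 and 71.4 in siKLF7 arrays. In both genes the siKLF7 arrays lay between the controls, with scramble control replicate 1 lowest. SERPINB11 rose by 0.53 (SE 0.17, limma adjusted p = 0.011) against scramble control replicate 1, and SERPINB12 did not pass (0.21, SE 0.16). Against scramble control replicate 2 they differed by -0.10 (SE 0.16) and -0.14 (SE 0.16). No detection call accompanied the values, so whether signals of this size exceeded background was not tested.

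Among the clade B genes outside the squamous group, SERPINB1, an inhibitor of neutrophil elastase and cathepsin G, had signals of 671 in scramble control replicate 1, 3027 in scramble control replicate 2, and 3201 and 2985 in siKLF7 cells. SERPINB9, the granzyme B inhibitor, stood at 115, 223, 218 and 235 in the same order. For both genes, 3 arrays agreed closely and scramble control replicate 1 was low, by 4.49-fold and 1.84-fold against the mean of the others. Both rose against scramble control replicate 1, by 2.18 (SE 0.12, limma adjusted p = 1.9e-27) and 0.88 (SE 0.16, adjusted p = 6.0e-06), and differed from scramble control replicate 2 by 0.03 (SE 0.11) and 0.02 (SE 0.16). SERPINB8, which inhibits furin, had signals of 1346 and 1239 in control and 1053 and 1403 in siKLF7 arrays. Its siKLF7 pair spanned both controls, with an SD of 0.29 (log2, n = 2). SERPINB10 stayed between 40.9 and 61.7 in all arrays, and both siKLF7 arrays were above both controls, with a difference of 0.32 (SE 0.12) that did not pass with 4 arrays.

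**Figure D3:**
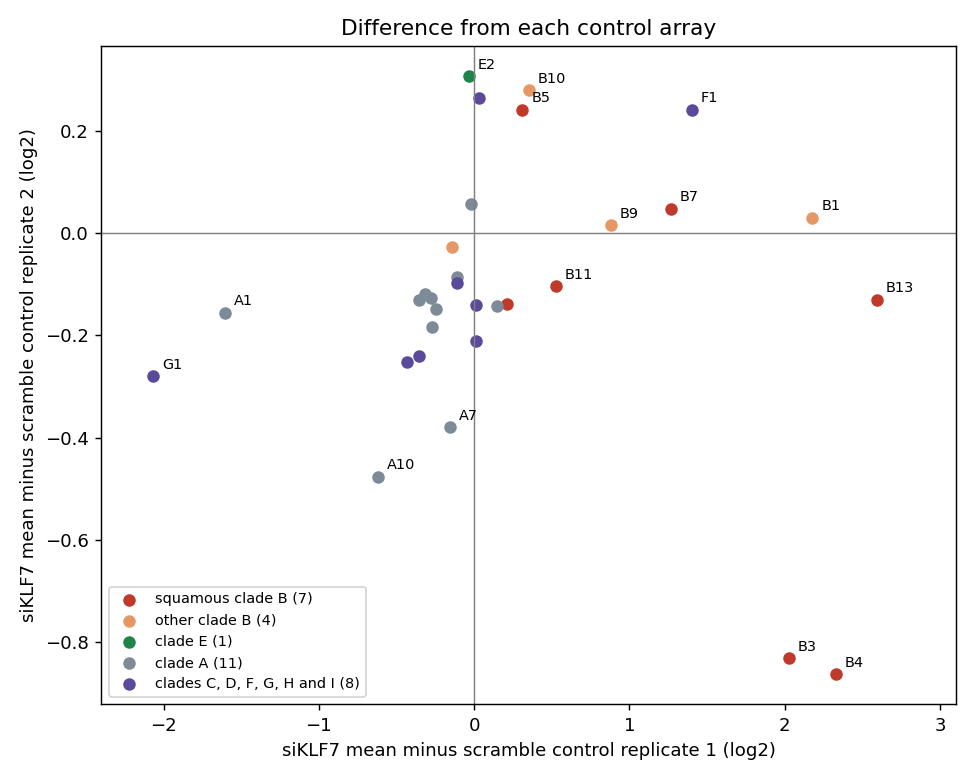
Each point is 1 of the 31 serpin genes: the mean of the 2 siKLF7 arrays minus scramble control replicate 1 (x axis) and minus scramble control replicate 2 (y axis), both in log2(signal + 16). The 2 axes share the siKLF7 arrays and have different ranges. SERPINB3 (B3) and SERPINB4 (B4) are far right and at the bottom, at 2.03 and -0.83 and at 2.33 and -0.86. SERPING1 (G1) is farthest left at -2.07.

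As a group, the 7 squamous clade B genes had a median difference of 1.27 from scramble control replicate 1 and -0.13 from scramble control replicate 2. The corresponding medians over all genes were -0.06 and -0.04. The 4 other clade B genes had medians of 0.62 and 0.02, and the 11 clade A genes of -0.27 and -0.14. SERPINE2 stood at -0.03 and 0.31. The 8 genes of the remaining clades had medians of -0.05 and -0.18. Scramble control replicate 1 was at least 2-fold below the mean of the other arrays for 4 of 7 squamous genes (SERPINB3, SERPINB4, SERPINB7 and SERPINB13), for SERPINB1 and for SERPINF1, against 3.0% of all genes. It was below that mean by any amount for 14 of 31 serpin genes, all 7 squamous genes among them, against 44.7% of all genes. It was at least 2-fold above for SERPINA1 and SERPING1, against 2.12% of all genes. When scramble control replicate 2 was left out, 9 of 31 serpin genes rose and 3 fell, against 13.4% of all genes in each direction, and 6 of the 7 squamous genes were among those that rose. These are counts and medians over chosen genes, and no test of one group of genes against another was made.

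Along chromosome 18, the 9 measured clade B genes follow each other in RefSeq as SERPINB5, SERPINB12, SERPINB13, SERPINB4, SERPINB3, SERPINB11, SERPINB7, SERPINB10 and SERPINB8. In that order, their differences from scramble control replicate 1 were 0.31, 0.21, 2.59, 2.33, 2.03, 0.53, 1.27, 0.35 and -0.14. Differences above 1 were those of SERPINB13, SERPINB4 and SERPINB3, which are adjacent, and of SERPINB7. SERPINB1 and SERPINB9, on chromosome 6, differed from it by 2.18 and 0.88. SERPINB4 and SERPINB3, the only members called lower than scramble control replicate 2, are adjacent.

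**Figure D4:**
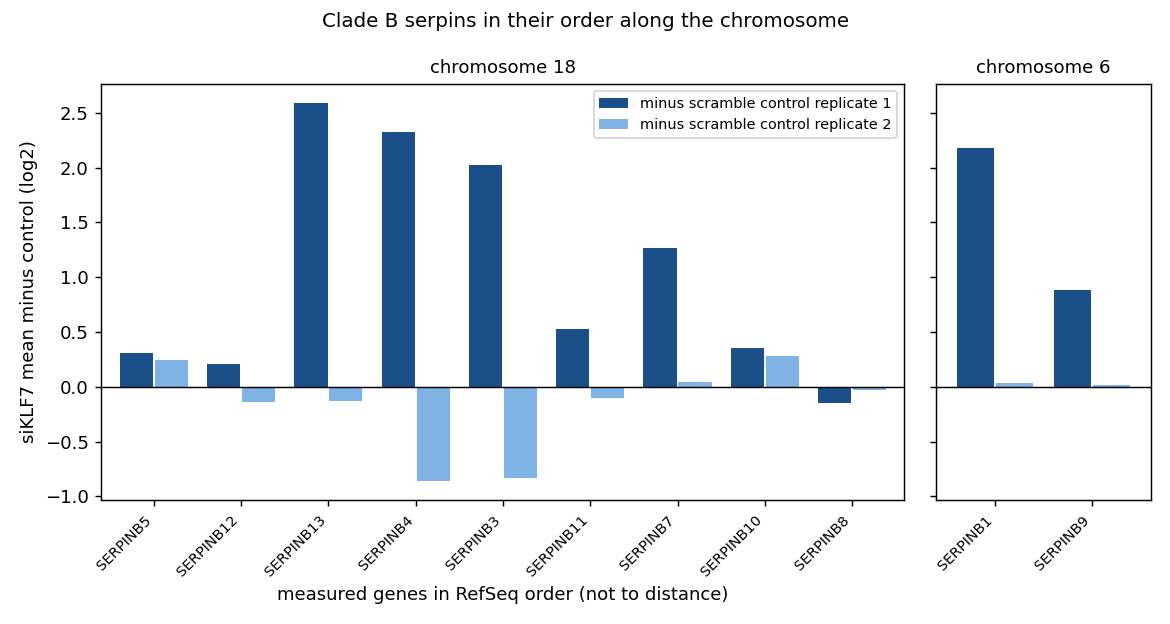
Mean of the 2 siKLF7 arrays minus each scramble control array, in log2(signal + 16), for 9 clade B serpins on chromosome 18 and 2 on chromosome 6, in RefSeq order and not to distance. Bars against scramble control replicate 1 reach 2.59 at SERPINB13, and bars against scramble control replicate 2 drop to -0.86 and -0.83 at SERPINB4 and SERPINB3.

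Markers of squamous differentiation were lower in scramble control replicate 1, as were the squamous clade B genes. Against scramble control replicate 2 the markers were mixed in direction, with a median difference of -0.07. The signals of 20 such markers (among them keratins, involucrin and small proline-rich proteins) summed to 6461 in scramble control replicate 1 and 61781 in scramble control replicate 2, and to 59738 and 60849 in the siKLF7 arrays. Scramble control replicate 1 was at least 2-fold lower for 18 of the 20 (3.0% of all genes), and 3 had a signal under 16 there, although none was listed at 0. SPRR1A, a cornified envelope precursor, had signals of 1000.1 and 11316 in control and 10721 and 11056 in siKLF7 arrays, and the corresponding SPRR1B signals were 775, 9279, 8793 and 8667. Relative to scramble control replicate 2, 5 of the 20 markers rose (KRT1, KRT10, KRT13, DSG1 and DSC1) and 5 fell (TGM1, TGM3, SPRR3, CNFN and RHCG), against 0.89% and 0.679% of all genes. CNFN, the cornifelin gene, fell by 0.82 (SE 0.09, limma adjusted p = 8.1e-11). The desmosomal cadherin gene DSC2 had signals of 2023, 4863, 5586 and 5266. The part of squamous differentiation in the serpin differences was not tested.

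The labelled cell type was checked against epithelial markers. KRT5 and KRT14, the keratins of basal epithelial cells, had signals from 11828 to 13575 and from 8379 to 13103 over the 4 arrays, and those of ITGB4 and CDH1 ran from 3683 to 6033 and from 3161 to 3939. The 10 measured corneal and basal markers summed to 31957 and 38741 in control and 42728 and 45606 in siKLF7 arrays, and the lowest signal among them, 0.0055 for KRT3 in scramble control replicate 1, was close to 0. Scramble control replicate 1 was at least 2-fold lower for 5 of these 10 (KRT12, KRT3, ALDH3A1, KRT15 and EPCAM), against 3.0% of all genes. Its log2 difference from the mean of the other arrays ran from -6.89 to 0.63 over the 10 markers, with a median of -1.10. The sums do not show this, since they rest largely on KRT5 and KRT14. Relative to scramble control replicate 2, 4 of the 10 rose, namely KRT3, KRT12, KRT15 and ALDH3A1, against 0.89% of all genes. The high squamous marker signals in 3 arrays stand beside a label of undifferentiated cells. The 12 fibroblast and keratocyte markers summed to 4616 and 2629 in control and 3130 and 2995 in siKLF7 arrays. Scramble control replicate 1 was at least 2-fold higher for 3 of these 12, THY1, POSTN and FAP (2.12% of all genes). THY1 had signals of 752 and 111 in control and 101 and 109 in siKLF7 arrays, POSTN of 678, 25.4, 77.4 and 44.1, VIM of 1992, 1466, 2005 and 1843, and COL1A1 of 372, 328, 319 and 349.8. The 12 hepatocyte markers (led by APOC3, APOA1, TF and ALB) summed to 1269 and 1309 in control and 1199 and 1224 in siKLF7 arrays, and the 11 leukocyte markers (led by CD68, TYROBP, CD14 and CD3E) to 2902 and 2605 and to 2295 and 2375. Relative to scramble control replicate 2, LUM and POSTN of the 12 fibroblast markers rose (0.89% of all genes), and limma called 0 of the hepatocyte and 0 of the leukocyte markers (at an unadjusted p under 0.05, CYP3A4 and FCER1G, against 11.3% of all genes). Fewer cells of a type and less RNA per cell cannot be told apart in such bulk samples.

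SERPINE2 is protease nexin, a secreted inhibitor of thrombin and urokinase. Its signals were 1798 in scramble control replicate 1, 1418 in scramble control replicate 2, and 1870.5 and 1652 in siKLF7 cells. Both siKLF7 arrays were above scramble control replicate 2 and lay on either side of scramble control replicate 1. The difference was 0.31 (SE 0.13, limma adjusted p = 0.32) against scramble control replicate 2 and -0.03 (SE 0.13) against scramble control replicate 1, and with 4 arrays it was 0.14 (SE 0.17). None of these passed. SERPINH1, or Hsp47, is a collagen chaperone of the endoplasmic reticulum that inhibits no protease. It had signals of 2674, 2271, 2668 and 2796 in the same order, and like SERPINE2 it was lowest in scramble control replicate 2, with a difference of 0.26 (SE 0.11, adjusted p = 0.32).

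SERPINF1 encodes pigment epithelium-derived factor, a secreted inhibitor of blood vessel growth that is abundant in the eye and inhibits no protease. Its signals were 302 and 696 in control and 841 and 809 in siKLF7 arrays. Both siKLF7 arrays exceeded both controls, and scramble control replicate 1 was lowest by far. SERPINF1 rose against scramble control replicate 1 by 1.40 (SE 0.16, limma adjusted p = 6.8e-12), and the difference from scramble control replicate 2 of 0.24 (SE 0.15, adjusted p = 0.57) did not pass.

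SERPING1 and SERPINA1 ran the other way. SERPING1, the inhibitor of the classical complement proteases, had signals of 693 in scramble control replicate 1, 189 in scramble control replicate 2, and 169 and 139 in siKLF7 cells. SERPINA1, or antitrypsin, the main plasma inhibitor of neutrophil elastase, had signals of 273, 89.9, 87.5 and 71.3. In both genes scramble control replicate 1 was high, 3.93-fold and 2.93-fold above the mean of the others, and both siKLF7 arrays were also below scramble control replicate 2. Relative to scramble control replicate 1, SERPING1 fell by 2.07 (SE 0.16, limma adjusted p = 4.5e-19) and SERPINA1 fell by 1.60 (SE 0.16, adjusted p = 4.8e-14). The differences from scramble control replicate 2 were -0.28 (SE 0.16) and -0.16 (SE 0.16).

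SERPINA10, an inhibitor of coagulation factor X that acts with protein Z, had signals of 115 and 102 in control and 69.0 in each siKLF7 array. The groups did not overlap, and the siKLF7 arrays were nearly equal. It fell by 0.62 (SE 0.16, limma adjusted p = 0.0017) against scramble control replicate 1, whereas the difference from scramble control replicate 2 was -0.48 (SE 0.16, adjusted p = 0.15) and that with 4 arrays was -0.55 (SE 0.11), neither of which passed. In total both siKLF7 arrays lay below both controls for 13 of 31 serpin genes and above both for 3, against 28.9% and 16.3% of all genes. Together these made 16 of 31, against 45.2% of all genes. Of the 13, 9 were among the 11 clade A genes. No clade A signal exceeded 273, below the median signal over all genes in each array (283 to 296). For comparison, the hepatocyte marker ALB had signals from 95.0 to 110 over the 4 arrays. No detection call accompanied the values, so whether clade A signals, those of SERPINA10 among them, exceeded background was not tested. The share among genes of like signal was not computed. Compared with scramble control replicate 2 alone, both siKLF7 arrays were lower for 21 of 31 serpin genes (44.6% of all genes) and higher for 5 (29.7%), namely SERPINB5, SERPINB10, SERPINE2, SERPINF1 and SERPINH1.

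The other clade A genes were dim and close in all arrays. SERPINA3, the antichymotrypsin gene, had signals of 249 and 234 in control and 194 and 214 in siKLF7 arrays. SERPINA4, the tissue kallikrein inhibitor kallistatin, stood at 131 and 112 in control and 104 and 99.6 in siKLF7 arrays. SERPINA2, annotated in RefSeq as a transcribed pseudogene, stood at 128 and 107 in control and 97.4 and 95.7 in siKLF7 arrays. In these 3 genes the siKLF7 arrays were below both controls, by less than 0.36 from either in the mean.
SERPINA11 had signals of 109 and 96.8 in control and 83.4 and 91.4 in siKLF7 arrays. SERPINA6, the corticosteroid-binding globulin, had signals of 74.5 and 68.6 in control and 58.4 and 62.4 in siKLF7 arrays. SERPINA9, a gene of germinal centre B cells, had signals of 66.5 and 65.1 in control and 61.7 and 59.1 in siKLF7 arrays. These 3 genes too had lower signals in each siKLF7 array than in either control.
SERPINA5, the protein C inhibitor, had signals of 103 and 97.2 in control and 92.9 and 111 in siKLF7 arrays, so the groups overlapped. SERPINA12, the adipokine vaspin, had signals of 63.5 and 81.1 in control, with siKLF7 arrays of 72.2 and 71.6 between them. None of these 8 genes passed in any of the 3 fits.

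Coagulation and fibrinolysis inhibitors of the remaining clades had similar signals in all arrays. SERPINC1, or antithrombin, had signals of 149 and 168 in control and 144 and 157 in siKLF7 arrays. SERPINF2, the plasmin inhibitor antiplasmin, had signals of 146 and 173 in control and 145 and 149.5 in siKLF7 arrays. Scramble control replicate 2 was highest in both genes, and the differences from it were -0.14 (SE 0.16) and -0.21 (SE 0.16). SERPIND1 (heparin cofactor), SERPINI1 (neuroserpin), SERPINI2 and SERPINA7 (the thyroxine-binding globulin) stayed below a signal of 64 in all arrays, as did SERPINB10, and ranged from 16.1 to 61.7 together. None of these 6 genes outside clade B passed in any fit.

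Promoter windows of the same length were found in RefSeq for 24 of the 31 members, 34 windows in all. They were searched on both strands for CACCC, a core of boxes that Kruppel-like factors bind, for GGGCGG, for the AP-1 motif TGANTCA and for TATAAA. Only exact matches were counted, and other forms of such boxes were not searched. A window without CACCC may therefore still hold a sequence that Kruppel-like factors bind. SERPINB5 at chr18:63476708-63476957 and SERPINB13 at chr18:63587093-63587342, both on the plus strand, are shown beside the pair above because they belong to the same cluster and differed from it against scramble control replicate 2. Here capitals mark motif matches.
SERPINB5: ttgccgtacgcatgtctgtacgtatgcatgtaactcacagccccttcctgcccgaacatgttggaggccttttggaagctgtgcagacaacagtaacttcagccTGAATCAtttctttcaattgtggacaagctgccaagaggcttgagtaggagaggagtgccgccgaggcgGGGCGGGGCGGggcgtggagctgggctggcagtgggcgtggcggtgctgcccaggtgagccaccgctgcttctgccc
SERPINB13: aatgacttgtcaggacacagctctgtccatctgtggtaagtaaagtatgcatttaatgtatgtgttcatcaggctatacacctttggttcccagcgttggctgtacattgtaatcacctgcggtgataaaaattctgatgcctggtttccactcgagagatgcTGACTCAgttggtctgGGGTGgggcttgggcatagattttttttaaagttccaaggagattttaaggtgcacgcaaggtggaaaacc
CACCC occurred in 18 of the 34 serpin windows (52.9%), against 54.7% of all 35116 windows. The SERPINB3 and SERPINB4 windows each held 1 CACCC, starting at base 236, and SERPINB13 held 1 as GGGTG on the other strand. SERPINB5 held none, but held 2 overlapping GGGCGG, a motif found in 9 of the 34 serpin windows (26.5%) and in 42.6% of all windows. SERPINB5 and SERPINB13 each held 1 TGANTCA, which occurred in 7 of the 34 serpin windows (20.6%) and in 6.57% of all windows. TATAAA occurred in 7 of the 34 (20.6%) and in 10.7% of all windows, and in none of the 4 windows shown. Windows of 1 gene can share bases, and no test of these shares was made. No match of one motif overlapped a match of another in these windows.

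Proteases and partner proteins of the serpins were read from 4 lists. Of 22 cathepsins and granule proteases, 1 rose without scramble control replicate 1 and 0 fell, against 0.89% and 0.679% of all genes. That gene was CTSV, a lysosomal cysteine protease of the cathepsin L type found in the cornea. Its signals were 295 and 689 in control and 1127 and 986 in siKLF7 arrays. Both siKLF7 arrays exceeded both controls, by 0.60 against scramble control replicate 2 (SE 0.15, limma adjusted p = 0.014) and 1.78 against scramble control replicate 1. The call was lost with a prior without an intensity trend. CTSB, PRTN3 and GZMK differed by -0.27 (SE 0.11), -0.31 (SE 0.15) and -0.22 (SE 0.09) with 4 arrays, and did not pass. The list median was -0.11 against scramble control replicate 1 and close to 0 against scramble control replicate 2, and 2 of the 22 rose and 6 fell relative to scramble control replicate 1, where 13.4% of all genes were called in each direction.

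Among 20 other epithelial protease inhibitors, 2 fell without scramble control replicate 1 and 0 rose, against 0.679% and 0.89% of all genes. PI3, or elafin, an inhibitor of neutrophil elastase, had signals of 176 and 7298 in control and 4941 and 4439 in siKLF7 arrays. A2ML1, a broad protease inhibitor of stratified epithelia, had signals of 112, 1140.5, 749 and 679. Both shared with SERPINB3 and SERPINB4 an order in which the siKLF7 arrays lay between the controls, as they did for 12 of the 20 genes (19.6% of all genes). PI3 fell by 0.64 (SE 0.08, limma adjusted p = 1.3e-07) and A2ML1 by 0.67 (SE 0.15, adjusted p = 0.0053) against scramble control replicate 2. With 4 arrays PI3 stood at 1.99 (SE 1.73) and A2ML1 at 0.92 (SE 1.05). TFPI2, a Kunitz-type inhibitor of the matrix, had signals of 1543 in scramble control replicate 1, 90.8 in scramble control replicate 2, and 76.2 and 63.6 in siKLF7 cells, and SPINK9 stayed between 13.3 and 19.3. Relative to scramble control replicate 1, 9 of the 20 rose and 3 fell, against 13.4% of all genes in each direction. The list had medians of 0.21 and -0.19 against scramble control replicates 1 and 2.

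**Figure D5:**
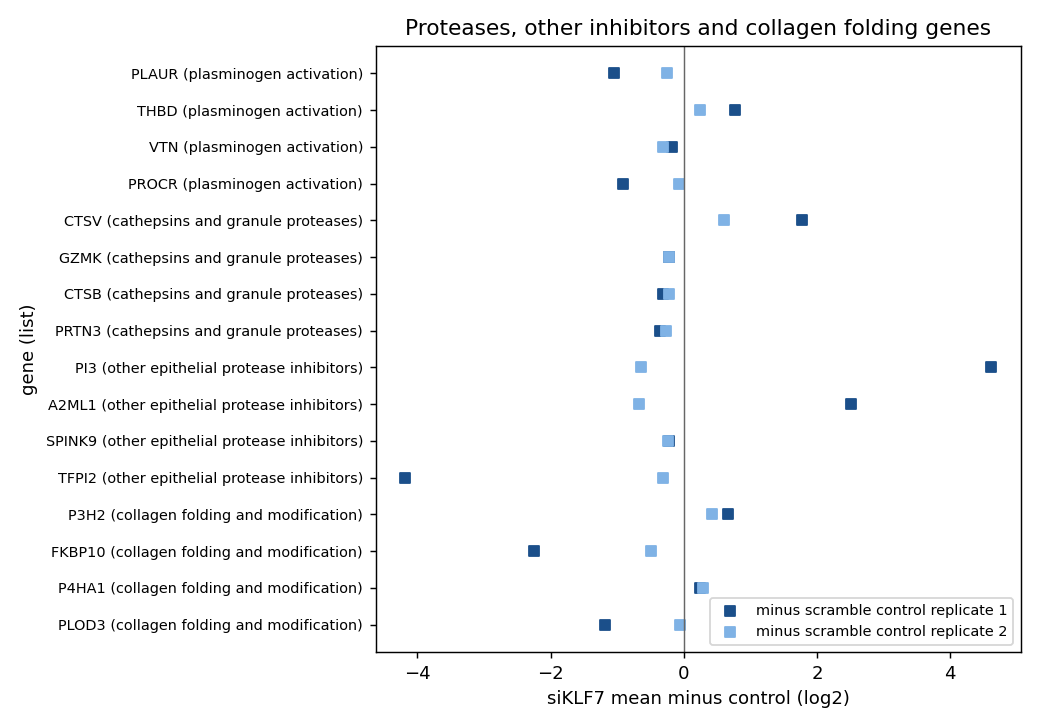
Mean of the 2 siKLF7 arrays minus each scramble control array, in log2(signal + 16), for the named genes of 4 lists of proteases, receptors, other inhibitors and collagen-modifying enzymes. CTSV lies to the right of 0 against both controls, at 1.78 and 0.60, while PI3 lies at 4.62 against scramble control replicate 1 and -0.64 against scramble control replicate 2.

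Plasminogen activation, a system that SERPINE2 restrains, gave 0 of 14 genes called by limma without scramble control replicate 1, against 1.57% of all genes, and 0 with 4 arrays. At an unadjusted p under 0.05, 3 of the 14 passed without scramble control replicate 1 (PLAU, PLAT and F2R), against 11.3% of all genes, and 0 with 4 arrays. PLAUR, the urokinase receptor, had signals of 1444 and 829 in control and 683 and 704 in siKLF7 arrays. Both siKLF7 arrays were lower than both controls, with a difference of -0.25 (SE 0.15) from scramble control replicate 2 that did not pass. THBD, thrombomodulin, had signals of 511, 745, 795 and 980.0, with the siKLF7 arrays above both controls. With 4 arrays VTN, PROCR, PLAUR and THBD differed by -0.25 (SE 0.12), -0.49 (SE 0.31), -0.65 (SE 0.29) and 0.50 (SE 0.24). Without scramble control replicate 2, THBD rose and 5 of the 14 fell (PLAU, PLAUR, PLAT, F3 and PROCR), against 13.4% of all genes in each direction. The list medians were -0.22 and 0.01 against the 2 controls in turn.

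Collagen folding and modification enzymes, which act on the clients of SERPINH1, gave 0 of 16 genes called by limma without scramble control replicate 1, against 1.57% of all genes, and 0 with 4 arrays. At an unadjusted p under 0.05, FKBP10 and P3H2 passed without scramble control replicate 1 (11.3% of all genes), and P3H2 passed with 4 arrays (5.81%). FKBP10, a collagen prolyl isomerase, had signals of 2021 and 589 in control and 432 and 395 in siKLF7 arrays, and P3H2, a prolyl hydroxylase, had signals of 747, 891, 1139 and 1257. Without scramble control replicate 1 they differed by -0.50 (SE 0.16, limma adjusted p = 0.12) and 0.42 (SE 0.14, adjusted p = 0.16). PLOD3 and P4HA1 differed by -0.62 (SE 0.39) and 0.26 (SE 0.16) with 4 arrays. From scramble control replicate 1, FKBP10 differed by -2.25, PLOD3 by -1.19 and P4HA1 by 0.25. Relative to scramble control replicate 1, P3H2 rose and 6 of the 16 fell, against 13.4% of all genes in each direction. The list medians were -0.26 against scramble control replicate 1 and 0.06 against scramble control replicate 2.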

How the data were processed

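Total RNA from 2 scramble control and 2 siKLF7 samples of HCE cells was measured on whole-transcript arrays. The authors deposited linear array intensity values, for which the submitters' processing notes name PLIER 2.0 and Affymetrix Expression Console 1.1.1. Any normalization between arrays is not given in the sources read. Because a constant was added to each signal before taking log2, a difference in array scale would displace dim genes less than bright ones. The median difference of siKLF7 arrays from the control mean was -0.048 over all genes. It was -0.024 without the dimmest 25% of genes and 0.013 without the dimmest 50%. Whether array scale contributed to the differences was not tested.

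Features with 1 platform symbol were kept, and the highest-mean feature was taken per gene. Values were analysed as log2(signal + 16), which shrinks differences of dim genes, without normalization or filter. limma 3.58.1 (R 4.3.3; lmFit, eBayes with an intensity trend, 2-sided) was fitted to all 18417 genes, with Benjamini-Hochberg adjustment over all of them and a threshold of 0.05. Fits with 4 arrays and without scramble control replicate 1 had 2 and 1 residual degrees of freedom. Their prior degrees of freedom, shared over all genes, were 2.63 and 69.9. Without scramble control replicate 1 the p-values thus rest mostly on this prior. Those of either fit with a lone control do not measure the spread between controls. The fit was also run on simulated data with equal noise in all arrays of a gene. Such data cannot test whether a lone control varies like the siKLF7 pair.

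The members, the squamous group and the 12 lists (149 of 158 genes matched) were chosen with earlier results of these data known. Named genes were KLF7, all serpins (values per array where any signal reached 64), members of protease, inhibitor, collagen and plasminogen lists called without scramble control replicate 1 and otherwise up to 4 by p with 4 arrays, and the 4 brightest of each marker list. PLAU, PLAT, F2R, KRT1, KRT10, KRT13, DSG1, DSC1, TGM1, TGM3, SPRR3, RHCG, KRT3, KRT12, KRT15, ALDH3A1, EPCAM, FAP, LUM, F3, CYP3A4 and FCER1G were added after their values were seen. The number of arrays limits precision. Alternatives tried were quantile normalization, median centring, pseudocounts of 1 and 32, leaving out dim genes, other priors, the mean of a gene's features, the replicate block, an adjusted p under 0.10 and leaving out each array. Sequences are from RefSeq (GRCh38.p14).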

Additional observations from a re-analysis of the deposited data

How the results depend on the processing

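With 4 arrays, 0 genes and 0 serpin genes passed under each alternative that kept all 4 arrays, including the replicate block (0 and 0). Leaving out each array in turn gave 0 to 4928 genes and 0 to 12 serpin genes; the highest counts came without scramble control replicate 2, and 289 genes and 2 serpin genes passed without scramble control replicate 1. KLF7 ran from -1.83 to -1.16 and passed without either control. Replicate numbers were not used as pairs, since only 2 pairs exist (correlation of deviations -0.042). Without scramble control replicate 1, the count of 289 genes became 479 with quantile normalization and 172 with a prior without trend, and SERPINB3 and SERPINB4 passed under all alternatives of that fit. Leaving out a further array there leaves no residual degrees of freedom and was not run.

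Some 4-array differences changed sign when an array was left out. Over the arrays left out, the ranges were -0.83 to 2.03 for SERPINB3, -0.86 to 2.33 for SERPINB4, -0.13 to 2.59 for SERPINB13, -0.10 to 0.53 for SERPINB11, -0.14 to 0.21 for SERPINB12 and -0.14 to 0.15 for SERPINA12. The lower end came without scramble control replicate 1 and the upper end without scramble control replicate 2. SERPINE2 became -0.033, SERPINC1 0.012, SERPINF2 0.011 and SERPINA5 -0.022 without scramble control replicate 2. SERPINB8 became 0.12 and SERPINA12 -0.0038 without 1 siKLF7 array, and SERPINA5 ran from -0.094 to 0.13. In the fit without scramble control replicate 1, SERPINA9 became 0.0097 with quantile normalization and SERPINB8 0.0061 with median centring. The cause was not tested.

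The squamous median against scramble control replicate 1 became 2.03 without the dimmest 25% or 50% of genes, which removes dim members, and 0.88 with all clade B genes. Against scramble control replicate 2 it became -0.047 with quantile normalization and -0.027 with all clade B genes. For other clade B genes the median against scramble control replicate 1 became 0.71 and 0.54 with pseudocounts of 1 and 32, and 0.88 and 1.02 without the dimmest 25% and 50%. Clade A became -0.55 against the control mean and -0.94 against scramble control replicate 1 without the dimmest 25%. Against scramble control replicate 2 it became -0.050 with quantile normalization, -0.11 with median centring, -0.17 and -0.12 with pseudocounts of 1 and 32, and -0.17 without the dimmest 25%. The remaining clades became 0.48, 0.72 and 0.25 against the control mean and the 2 controls in turn without the dimmest 50%, 0.012 against scramble control replicate 1 without the dimmest 25%, and -0.11 against scramble control replicate 2 with quantile normalization.

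Leaving out arrays gave medians against the control mean of -0.13 to 1.27 for squamous genes, 0.02 to 0.62 for other clade B, -0.03 to 0.31 for SERPINE2, -0.27 to -0.14 for clade A and -0.18 to -0.05 for the remaining clades. Leaving out either siKLF7 array gave, against scramble control replicate 1, 1.04 to 1.49, 0.59 to 0.64, -0.12 to 0.06, -0.29 to -0.21 and -0.09 to -0.03 for these groups in turn, and against scramble control replicate 2, -0.18 to -0.08, 0.023 to 0.12, 0.22 to 0.40, -0.14 to -0.14 and -0.17 to -0.12.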
